A study of Mus musculus with 14 samples.

Results

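Ptgs2, Alox5, Alox5ap and Lta4h were followed across 14 RNA-seq libraries of mouse blood neutrophils. These 4 genes encode cyclooxygenase 2 and the enzymes that lead to leukotriene B4, and they were chosen by symbol from the 11288 genes of the deposited table. All 4 had a value above 0 in every library and all 4 passed the filter on low values. The cells were taken by a Ly6G sort after red cells were lysed, from C57BL/6 males that were 7 to 10 weeks old. Wild-type mice were sampled at zeitgeber time 5 (ZT5, a clock time of 12 h, replicates 5, 8 and 9) and at ZT13 (20 h, replicates 2, 8 and 9). The 3 mutant groups were sampled at ZT5 and carried floxed alleles of Bmal1 (BMALf/f, 3 libraries), Cxcr2 (CXCR2f/f, 2 libraries) or Cxcr4 (CXCR4f/f, 3 libraries), each with Mrp8Cre. Bmal1, also named Arntl, is a core clock gene, while Cxcr2 and Cxcr4 are chemokine receptors with opposed roles in neutrophil release and retention in the bone marrow. Mrp8Cre is driven by the promoter of a calprotectin gene and acts mainly in the neutrophil lineage. The controls are labelled WT, and no group analysed here is labelled as carrying the Cre alone. RNA was amplified with a kit for very small inputs, and the labels do not say whether each library came from its own mouse, so p-values measure the spread between these samples.

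Eicosanoids are signalling lipids made from arachidonic acid, which phospholipases release from membranes. Cyclooxygenases turn it into prostaglandin H2, the parent of prostaglandins and thromboxane. The 5-lipoxygenase encoded by Alox5, helped by the membrane protein FLAP encoded by Alox5ap, turns it into leukotriene A4. The hydrolase encoded by Lta4h then makes leukotriene B4, a chemoattractant that neutrophils both make and follow. Ptgs2 is an inducible gene whose messenger RNA is short-lived, and the 3 leukotriene genes are part of the usual equipment of mature myeloid cells.

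Ptgs2 showed the largest difference of the 4, and its control sequences are therefore given first. The gene lies on chr1:150100031-150108227 on the plus strand in GRCm38. The 250 bases before its start, and 30 bases shortly after it, are printed from the RefSeq promoter table of GRCm38.p6 on the plus strand. Capitals mark matches to motifs searched on both strands: in the upstream stretch a GC box (GGGCGG) and 2 matches to the C/EBP pattern TTNCNNAA, and in the 30-base stretch a cyclic AMP response element core (TGACGT, here on the minus strand) that overlaps an E-box (CACGTG).
Ptgs2 upstream, chr1:150099781-150100030: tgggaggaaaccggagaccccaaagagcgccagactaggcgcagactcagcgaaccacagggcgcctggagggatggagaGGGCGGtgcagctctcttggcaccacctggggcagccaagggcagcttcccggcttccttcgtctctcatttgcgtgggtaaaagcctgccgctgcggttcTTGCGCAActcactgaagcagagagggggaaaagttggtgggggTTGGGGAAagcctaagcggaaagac
Ptgs2 after the start, chr1:150100033-150100062: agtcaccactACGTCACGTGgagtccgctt
Counted from the annotated start, which other sources may place elsewhere, the GC box lay at bases -170 to -165 and the C/EBP matches at -69 to -62 and -25 to -18. The response element core lay at 13 to 18 and the E-box at 17 to 22. Of 32851 promoters of the same length, 7.15% held the E-box, 7.51% the response element core, 40.7% the C/EBP pattern and 35.7% the GC box. The window held no match to the letters searched for AP-1 (TGANTCA, in 7.81% of promoters), ETS (GGAAGT, 23.8%), a TATA box (TATAAA, 13.6%) or NF-kB (8.46%). It spans 250 bases before and 50 after the annotated start, and bases farther away were not searched. In the promoters of Alox5 and Lta4h, a GC box in that of Alox5 was the one match among these motifs.

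The 3′ untranslated region of Ptgs2 is also shown in part, because copies of ATTTA are a known feature of short-lived messenger RNAs. Bases 12 to 41 of that region hold 4 copies, in capitals, of which the first ones overlap.
Ptgs2 3′ untranslated region: ccatATTTATTTATTTAtgtgaagaATTTA
The whole region, 2445 bases in the GENCODE M21 transcript with the longest coding sequence, holds 14 copies. Of 9460 genes with such a region of at least 50 bases, 2.57% held at least as many. At 5.73 copies per kilobase Ptgs2 compared with a median of 1.32 per kilobase over those genes, and 4.59% of them were at least as dense. Alox5 and Alox5ap each held 2 copies in 642 and 419 bases, and Lta4h none in 94 bases.

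The libraries held 4082276 to 6678645 recovered reads, and 1 read was worth 0.127 to 0.244 units of the normalized value. Cxcr4 averaged 19.1 ± 6.56 (SD, n = 3) in the libraries of its own mutant and 435 ± 149 (SD, n = 3) in wild-type ZT5, so the transcript matched that label. Arntl was low in all 14 libraries, at 0 to 12.7, and Cxcr2 was 1396 ± 60.2 (SD, n = 2) in the libraries labelled Cxcr2-deficient against 1757 ± 449 (SD, n = 3) in wild-type ZT5. The transcripts therefore did not check those 2 labels. The neutrophil markers Csf3r, S100a8 and S100a9 were present in every library, at no less than 1808, 1008 and 3895. The transcript of Ly6g, the marker of the sort, was lower, at 10.4 to 256. It averaged 213 ± 38.1 (SD, n = 3) in the Cxcr4-deficient libraries and 31.3 ± 6.64 (SD, n = 3) in wild-type ZT5. Wild-type ZT5 replicate 5 stood apart, with the highest summed B cell markers, 4400 against 140 to 1214 in the other 13 libraries, and the lowest summed neutrophil markers, 10705.

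Ptgs2 was expressed at a similar level in 4 of the 5 groups and was far lower in the Cxcr4-deficient one. Wild-type ZT5 libraries had normalized values of 382, 268 and 335 in replicates 5, 8 and 9. Wild-type ZT13 libraries had values of 595, 302 and 384 in replicates 2, 8 and 9. The libraries labelled Bmal1-deficient had values of 630, 426 and 291, and those labelled Cxcr2-deficient had 440 and 355. These 11 libraries overlapped across their groups, with replicate 2 high in both wild-type ZT13 and the Bmal1-deficient group. In the Cxcr4-deficient libraries the values were 33.6, 10.4 and 9.30 in replicates 2, 4 and 5. Each of these 3 lay below each of the other 11, and the lowest of them still rested on 50 reads, with an exact Poisson interval of 37.1 to 65.9 reads that covers counting error only.

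**Figure D1:**
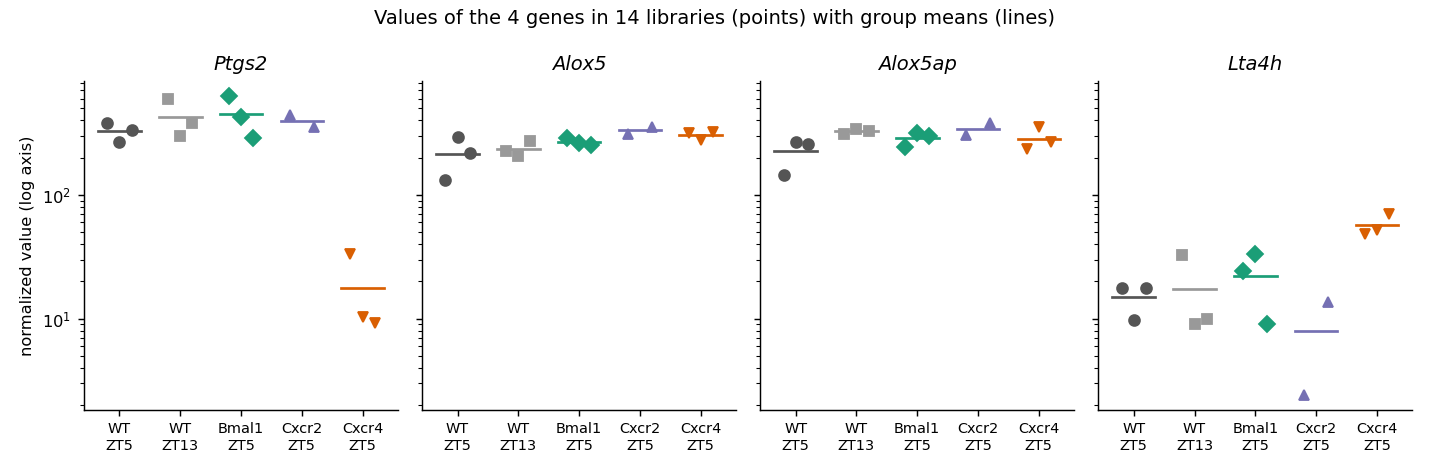
Normalized value on a log axis (y) of Ptgs2, Alox5, Alox5ap and Lta4h in the 5 groups (x), with each point 1 library and each line the group mean. Ptgs2 lies between 9.30 and 33.6 in the Cxcr4-deficient libraries and between 268 and 630 elsewhere, Alox5 and Alox5ap stay within 131 to 379, and Lta4h is highest in the Cxcr4-deficient libraries.

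Against wild-type ZT5, at 328 ± 57.3 (SD, n = 3), Ptgs2 fell to 17.7 ± 13.7 (SD, n = 3) in Cxcr4-deficient neutrophils, 5.40% of the control mean. On the log2(value + 1) scale the change was -4.35 (SE 0.34, 95% interval -5.05 to -3.65, adjusted p = 2.07e-09 by limma over all genes). It ranked 9 by p among 11255 genes tested, of which 8.2% were called in this comparison at an adjusted p under 0.05, and 1 of the 4 genes was called. Against the libraries labelled Cxcr2-deficient the difference was -4.64 (SE 0.38, limma adjusted p = 1.34e-08), where 4.13% of genes were called. Against those labelled Bmal1-deficient it was -4.75 (SE 0.34, limma adjusted p = 5.46e-10), where 5.7% were called. All 4 comparisons with wild-type ZT5 share those 3 control libraries, and the 3 comparisons of the Cxcr4-deficient group share its libraries. In bulk RNA from sorted cells, fewer cells that express a gene and less RNA of it per cell cannot be told apart.

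No difference in Ptgs2 was called between the other groups. From ZT5 to ZT13 in wild-type cells the log2 difference was 0.34 (95% interval -0.36 to 1.03, limma adjusted p = 0.798), in a comparison where 0.08% of genes and none of these 4 were called. The Bmal1-deficient libraries differed from wild-type ZT5 by 0.39 (95% interval -0.30 to 1.09, limma adjusted p = 0.673), with 1.02% of genes called. For the Cxcr2-deficient libraries the value was 0.28 (95% interval -0.50 to 1.06, limma adjusted p = 0.813), with 0.666% of genes called. Between the Bmal1-deficient and Cxcr2-deficient libraries it was 0.11 (95% interval -0.67 to 0.89, limma adjusted p = 0.962), with 0.133% of genes called. At an unadjusted limma p under 0.05, 1, 0, 2 and 1 of the 4 genes passed in these 4 comparisons, none of them Ptgs2. Over all 11255 genes tested, 1193, 1517, 1519 and 902 passed at that level. With edgeR and DESeq2 on the recovered reads, 0 of the 4 were called in each. None of these intervals reached the size of the difference seen with Cxcr4 deficiency.

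**Figure D2:**
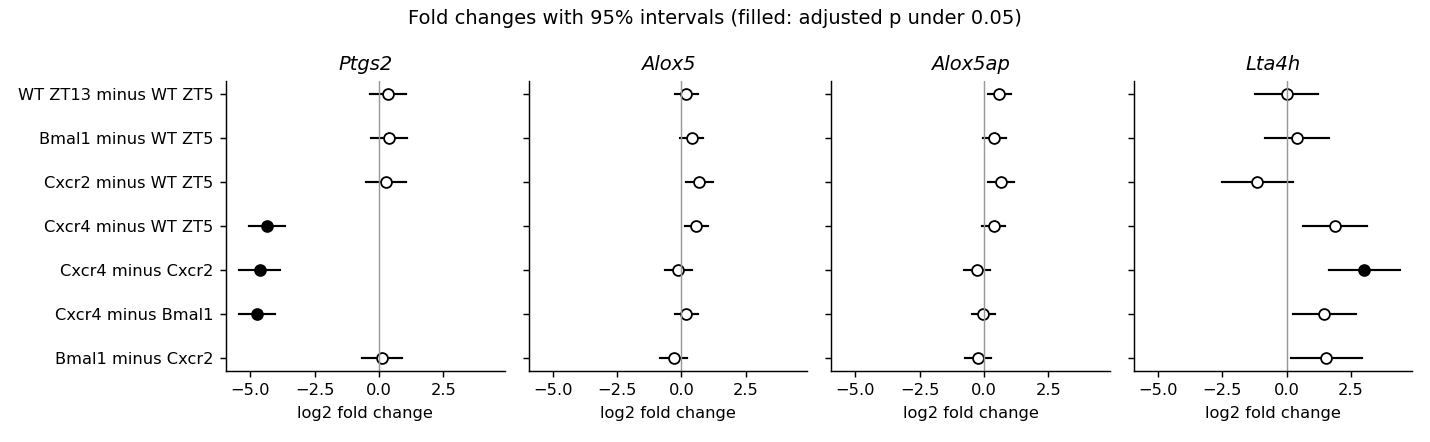
Log2 fold change (x) with its 95% interval (line) for the 4 genes in each of 7 comparisons (y), filled where the adjusted p was under 0.05. Ptgs2 is filled in the 3 comparisons of the Cxcr4-deficient group, between -4.35 and -4.75, and Lta4h is filled in 1 of them at 3.01, while Alox5 and Alox5ap are filled in none.

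Markers of other blood cells also moved in the Cxcr4-deficient libraries against wild-type ZT5, where 8.2% of all genes were called. Of 15 B cell markers in the table, out of 18 listed, 12 fell against wild-type ZT5, and the summed values were 140 to 246 against 557 to 4400. Of 16 monocyte and macrophage markers, out of 18 listed, 12 fell and 2 rose, and the 2 that rose, Lyz2 and Ly6c2, are also made by neutrophils and their precursors. The monocyte sums over the whole list were 4663 to 5325 against 2917 to 3805, higher in the Cxcr4-deficient libraries. Without those 2, a choice made after the values were seen, they were 395 to 443 against 1370 to 2512, lower in those libraries. These smaller sums still hold Nr4a1 and Klf4, which fell and are also on the list of immediate early genes below. Of 11 red cell genes, out of 13 listed, 9 fell, with sums of 4188 to 13967 against 21451 to 67495. None of the 15 platelet markers was called, Gp1bb was at 0 in all 3 Cxcr4-deficient libraries, and the sums were 456 to 602 against 238 to 1355.

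The sums varied in the other groups as well, and their values are given here beside those of Ptgs2. The libraries labelled Bmal1-deficient and Cxcr2-deficient had B cell sums of 304 to 470, below every wild-type ZT5 library, with Ptgs2 at 291 to 630. Wild-type ZT13 replicate 2 had a B cell sum of 155, within the range of the Cxcr4-deficient libraries, and Ptgs2 at 595. Wild-type ZT5 replicate 5 had the lowest platelet sum of all 14, 238, and Ptgs2 at 382. The monocyte sums without Lyz2 and Ly6c2 reached down to 691 in the other groups, in wild-type ZT13 replicate 2, so no library outside the Cxcr4-deficient group was as low. Red cell sums outside that group likewise did not go below 21451. The part of B cells, monocytes, platelets and red cells in the result was not tested.

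**Figure D3:**
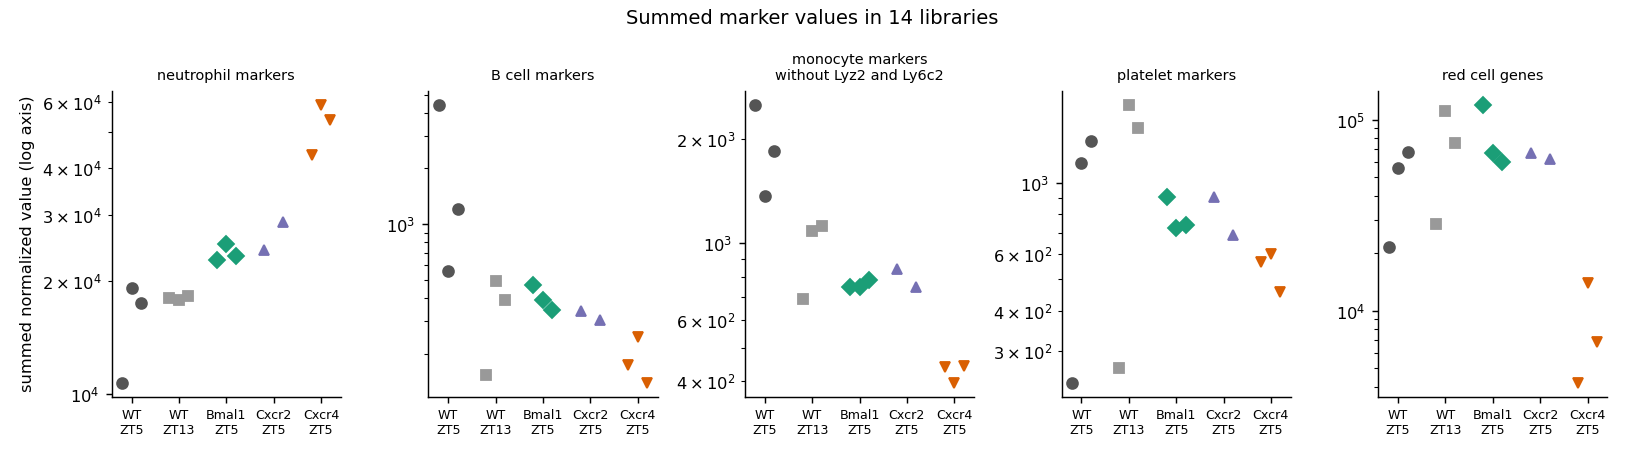
Summed normalized value on a log axis (y) of neutrophil, B cell, monocyte, platelet and red cell marker genes in each library (points) of the 5 groups (x). The Cxcr4-deficient libraries have the highest neutrophil sums, 43321 to 59116, and the lowest red cell sums and monocyte sums without Lyz2 and Ly6c2, while the B cell sum of 1 wild-type library and the platelet sums of 2 are as low.

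The neighbourhood of Ptgs2 on chromosome 1 was looked at as well, since Cxcr4 lies 21.5 Mb away on the same chromosome. Within 2 Mb of Ptgs2, 14 other genes were tested and 1, Ivns1abp, fell in Cxcr4-deficient against wild-type ZT5 libraries, where 8.2% of all genes were called. The nearest gene of the pathway, Pla2g4a, which encodes the cytosolic phospholipase A2 that frees arachidonic acid, starts its annotated span 0.139 Mb away. Pla2g4a averaged 38.6 in the Cxcr4-deficient libraries and 18.7 in wild-type ZT5 and was not called (limma adjusted p = 0.484). The antisense transcript Ptgs2os, whose annotated span lies 68 bases before that of Ptgs2, averaged 0.067 and 2.55 in the same 2 groups. It was not called (limma adjusted p = 0.560).

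Genes that respond within minutes to stimuli were read as a list beside Ptgs2, which is often induced with them. Of 21 immediate early genes in the table, out of 25 listed, 17 fell and none rose in the Cxcr4-deficient libraries against wild-type ZT5, where 8.2% of all genes were called. The median log2 difference was -1.50 against -0.11 over all genes. Nr4a1 and Klf4, both among those that fell, are also on the monocyte list above. Egr1, a zinc finger transcription factor, averaged 10.1 against 918, a difference of -6.89 (SE 0.52, limma adjusted p = 1.43e-09). Its mean was also lower, at 69.6, in the libraries labelled Cxcr2-deficient, and it was 732 in those labelled Bmal1-deficient. Against wild-type ZT5, 2 of the 21 fell in the Cxcr2-deficient group (0.666% of all genes called) and 1 in the Bmal1-deficient group (1.02%). None rose in either. Fosb, a subunit of the AP-1 transcription factor, averaged 33.7 against 345 (limma adjusted p = 3.95e-07). Klf6 and Fosl2 averaged 1242 against 1259 and 925 against 848 and were not called. In the Cxcr4-deficient libraries the count was 10 against those labelled Cxcr2-deficient (4.13% of all genes called) and 11 against those labelled Bmal1-deficient (5.7%). It was 11 against wild-type ZT5 when Cxcr4-deficient replicate 4 was left out.

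Of 19 NF-kB induced genes in the table, out of 21 listed, 3 fell and 1 rose in the Cxcr4-deficient libraries against wild-type ZT5 (8.2% of all genes called). Of the 19 differences, 16 were below 0. Against the Cxcr2-deficient libraries 5 fell (4.13% of all genes called) and against the Bmal1-deficient ones 1 fell (5.7%), and none rose in either. Against wild-type ZT5, 3 rose in the Cxcr2-deficient group (0.666%) and 1 in the Bmal1-deficient group (1.02%), and none fell. Cxcl2, a neutrophil chemoattractant, averaged 3.86 against 140 (limma adjusted p = 0.000225). Il1b, an inflammatory cytokine, averaged 1472 against 2982 (limma adjusted p = 0.00118), and Nfkbia, an NF-kB inhibitor, 80.4 against 177 (limma adjusted p = 0.0317). Cxcl2 and Nfkbia averaged 20.4 and 116 in the libraries labelled Bmal1-deficient. Neither difference between these and the Cxcr4-deficient libraries was called (limma adjusted p = 0.151 and 0.361). In the libraries labelled Cxcr2-deficient they averaged 247 and 530, and both differences were called. Il1b was lower by the test than in both groups, at 4429 and 4135. Il1rn, which encodes the antagonist of interleukin 1, was the one that rose against wild-type ZT5, to 354 from 144 (limma adjusted p = 0.000146). Its level was similar in the other mutants, at 364 in the libraries labelled Cxcr2-deficient and 319 in those labelled Bmal1-deficient. The Cxcr4-deficient libraries differed from these by -0.03 and 0.15, without a call (limma adjusted p = 0.972 and 0.783).

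Across the 14 libraries, the 5 genes whose log2 values were most like Ptgs2 by Pearson correlation, among 6103 whose mean value reached 10, were Fosb, Cxcr4, Atf3, Sirpb1a and Fos. Their correlations were 0.98, 0.97, 0.97, 0.95 and 0.95. The Cxcr4-deficient libraries stand apart in all of them, so the figures describe that gap first. Over the 11 other libraries the correlation with Ptgs2 was 0.77 for Fosb, 0.61 for Atf3 and 0.54 for Fos, but 0.22 for Cxcr4 and 0.01 for Sirpb1a. Within the Cxcr4-deficient group, replicate 2 was the highest in both Ptgs2, at 33.6, and Fosb, at 64.7, and replicates 4 and 5 were lower in both.

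**Figure D4:**
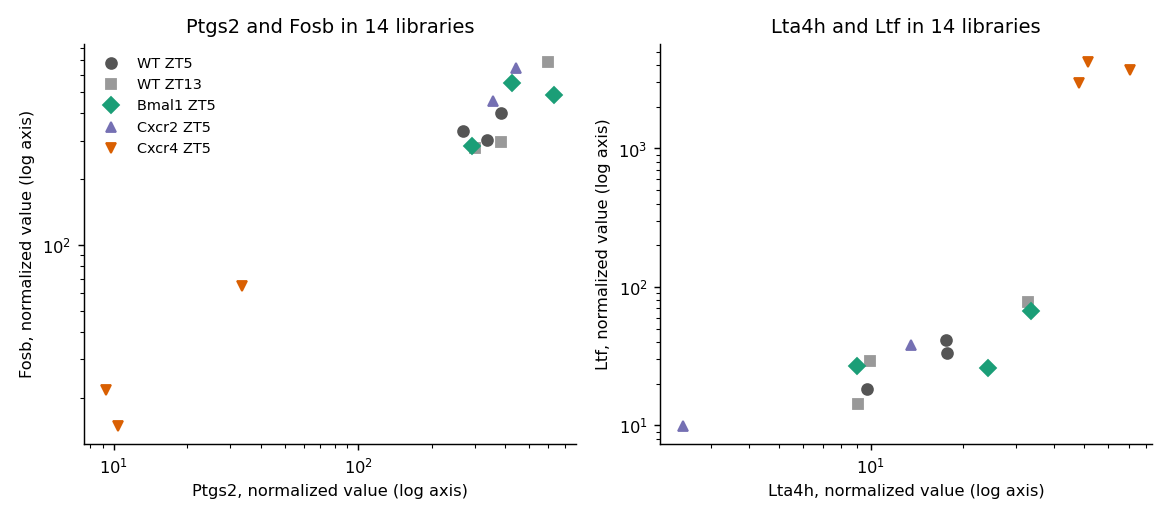
Ptgs2 against Fosb (left) and Lta4h against Ltf (right), as normalized values on log axes, with each point 1 of 14 libraries. The Cxcr4-deficient libraries lie low in both Ptgs2 and Fosb, at 14.9 to 64.7 for Fosb, and high in both Lta4h and Ltf, at 2958 to 4201 for Ltf.

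Lta4h, the last enzyme on the way to leukotriene B4, had the lowest level per kilobase of the 4 in wild-type cells and had its highest values in the Cxcr4-deficient libraries. It lies on chr10:93453411-93484875 on the plus strand in GRCm38. Its values were 17.8, 9.71 and 17.7 in wild-type ZT5 replicates 5, 8 and 9, and 32.7, 9.09 and 9.99 in wild-type ZT13 replicates 2, 8 and 9. In the Bmal1-deficient group they were 24.2, 33.5 and 9.04, and 2.42 and 13.6 in those labelled Cxcr2-deficient, the first of these from 11 reads. In the Cxcr4-deficient libraries they were 48.1, 51.7 and 70.7, from 241 to 380 reads. All 3 of these lay above all 11 others, which overlapped among themselves.

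The called difference in Lta4h was that between the 2 receptor mutants. The Cxcr4-deficient mean was 56.8 ± 12.1 (SD, n = 3) and the Cxcr2-deficient mean 7.99 ± 7.87 (SD, n = 2), a log2 difference of 3.01 (SE 0.67, limma adjusted p = 0.00696). Without Cxcr2-deficient replicate 4, the library with 11 reads, it was 1.97 and was not called (limma adjusted p = 0.231). Against wild-type ZT5, at 15.1 ± 4.64 (SD, n = 3), the Cxcr4-deficient libraries were 3.77 times as high, a difference of 1.87 (SE 0.60, 95% interval 0.64 to 3.11) that narrowly missed the threshold (limma adjusted p = 0.0527). Against the Bmal1-deficient libraries the difference was 1.47 (SE 0.60, limma adjusted p = 0.168). Between the remaining groups no difference was called, with limma adjusted p values of 0.999 for ZT13, 0.841 for Bmal1-deficient and 0.480 for Cxcr2-deficient libraries against wild-type ZT5.

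The genes most like Lta4h across the 14 libraries were Capg, Pacs1, Itsn2, Ltf and Adpgk, with correlations of 0.89, 0.86, 0.84, 0.84 and 0.83. Ltf encodes lactoferrin, a protein of the secondary granules that developing neutrophils fill. Over the 11 libraries outside the Cxcr4-deficient group the correlation of Ltf with Lta4h was 0.88 and that of Capg 0.78. Ltf averaged 3626 in the Cxcr4-deficient libraries and 31.1 in wild-type ZT5. Of 14 neutrophil markers in the table, out of 16 listed, 12 rose in the Cxcr4-deficient libraries against wild-type ZT5 (8.2% of all genes called). The markers Csf3r and Cxcr2 averaged 2158 against 2741 and 1873 against 1757. Against the Cxcr2-deficient libraries 8 rose and 1 fell (4.13% of all genes called), and against the Bmal1-deficient ones 9 rose and 1 fell (5.7%). The part of these markers in the level of Lta4h was not tested.

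Alox5, the 5-lipoxygenase, was expressed in every library and differed between no groups by the test. It lies on chr6:116410077-116461178 on the minus strand in GRCm38. Wild-type ZT5 values were 131, 295 and 220 in replicates 5, 8 and 9, and wild-type ZT13 values 226, 206 and 274 in replicates 2, 8 and 9. They were 288, 262 and 255 in the Bmal1-deficient group, 311 and 354 in those labelled Cxcr2-deficient, and 314, 280 and 324 in the Cxcr4-deficient ones. The groups overlapped except that both Cxcr2-deficient values lay above all those of wild-type and Bmal1-deficient cells, and the Cxcr4-deficient values above all those of wild-type ZT13. The widest differences were 0.70 for Cxcr2-deficient against wild-type ZT5 (95% interval 0.18 to 1.21, limma adjusted p = 0.190) and 0.58 for Cxcr4-deficient against wild-type ZT5 (95% interval 0.12 to 1.04, limma adjusted p = 0.118). Both passed the threshold when wild-type ZT5 replicate 8, the highest control, was left out, at 0.96 (limma adjusted p = 0.0428) and 0.84 (limma adjusted p = 0.0165). Without wild-type ZT5 replicate 5, the lowest control, they shrank to 0.38 and 0.26 and were not called.

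Alox5ap, which encodes the protein that presents arachidonic acid to 5-lipoxygenase, also differed between no groups by the test. It lies on chr5:149264767-149288153 on the plus strand in GRCm38, and the antisense gene Gm19719 and the ribosomal RNA copy n-R5s180 lie within its span on the minus strand. The sources used here do not give whether counting used the strand, so reads of those 2, which have no row of their own, could not be told from its own. Wild-type ZT5 values were 146, 268 and 260 in replicates 5, 8 and 9, and wild-type ZT13 values 311, 340 and 326 in replicates 2, 8 and 9. The ZT13 values all lay above the ZT5 ones, a difference of 0.59 (95% interval 0.14 to 1.04, limma adjusted p = 0.312) that was not called. Without wild-type ZT5 replicate 5, the lowest of them, the difference was 0.30. The share of all genes whose groups separate in this way was not counted. Values were 245, 315 and 300 in the Bmal1-deficient group, 303 and 379 in those labelled Cxcr2-deficient, and 234, 351 and 268 in the Cxcr4-deficient ones. Both Cxcr2-deficient values also lay above all wild-type ZT5 ones, a difference of 0.64 (95% interval 0.14 to 1.15, limma adjusted p = 0.221) that was not called. Against wild-type ZT5, the Cxcr4-deficient difference was 0.37 (95% interval -0.08 to 0.82, limma adjusted p = 0.359).

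Alox5 and Alox5ap tracked each other mainly through 1 library. Wild-type ZT5 replicate 5 was the lowest of the 14 in both, at 131 and 146, and it is the one with the high B cell and low neutrophil sums given above. Over all 14 libraries their correlation was 0.61, and without the 2 libraries farthest from the median of Alox5 it was 0.09. The ratio of Alox5ap to Alox5 stayed within 0.744 to 1.65 in the 14 libraries. The ratio of Ptgs2 to Alox5 was 0.907 to 2.92 in the 11 libraries outside the Cxcr4-deficient group and 0.0287 to 0.107 within it.

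The genes most like Alox5 were Stk4, Irak3, Arpc1a, Dennd3 and Prex1, with correlations of 0.88 to 0.91 over the 14 libraries. For Alox5ap they were Ppt1, Fam129a, Anxa2, Siglece and Ogfrl1, at 0.89 to 0.94. Each of these 10 had its lowest value in wild-type ZT5 replicate 5, as Alox5 and Alox5ap did. Without the 2 libraries farthest from the median of Alox5, the correlations with Alox5 were 0.67 to 0.81. Those with Alox5ap, without the 2 libraries farthest from its median, were 0.60 to 0.84. Stk4 encodes a kinase of the Hippo pathway, Irak3 an inhibitor of Toll-like receptor signalling, Prex1 a Rac activator of neutrophils, and Ppt1 a lysosomal thioesterase. None of these 10 was among those most like Ptgs2 or Lta4h.

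Levels of different genes were compared per kilobase of the transcript with the longest coding sequence. In wild-type ZT5 the order of mean values per kilobase was Alox5ap at 179, Alox5 at 76.3, Ptgs2 at 73.7 and Lta4h at 7.43. Alox5ap was higher per kilobase than Alox5 in each of the 14 libraries. Alox5 and Ptgs2 overlapped in wild-type ZT5, at 46.4 to 105 and 60.2 to 85.8 per kilobase, and their order there was not set apart from the spread. In the Cxcr4-deficient libraries the order was Alox5ap at 227, Alox5 at 108, Lta4h at 28.0 and Ptgs2 at 3.98, with Ptgs2 below Lta4h. How evenly the amplified RNA covered these transcripts was not tested.

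Other genes of the pathway were read from 6 lists by role, of whose 64 genes 35 were in the table. In Cxcr4-deficient against wild-type ZT5 neutrophils 6 of the 35 rose and 3 fell, where 8.2% of all genes were called, with a median log2 difference of -0.03 against -0.11 over all genes. From ZT5 to ZT13, none was called (0.08% of all genes). Against wild-type ZT5, 1 rose and 1 fell in the Bmal1-deficient group (1.02% of all genes called), and none was called in the Cxcr2-deficient group (0.666%). In Cxcr4-deficient against Cxcr2-deficient libraries 4 rose and 1 fell (4.13% of all genes called), against Bmal1-deficient ones 4 rose and 2 fell (5.7%), and between those 2 groups none was called (0.133%). Where limma called none, the number of the 35 at an unadjusted p under 0.05 was 5 for ZT13 and 6 for the Cxcr2-deficient group against wild-type ZT5. It was 4 for the Bmal1-deficient against the Cxcr2-deficient group. Over all 11255 genes tested, 1193, 1519 and 902 passed at that level in these 3 comparisons. In the same 3, edgeR called 0 of the 35 in each while DESeq2 called 0, 2 and 0. Depending on the processing, the count of 9 against wild-type ZT5 ran from 4 to 10.

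**Figure D5:**
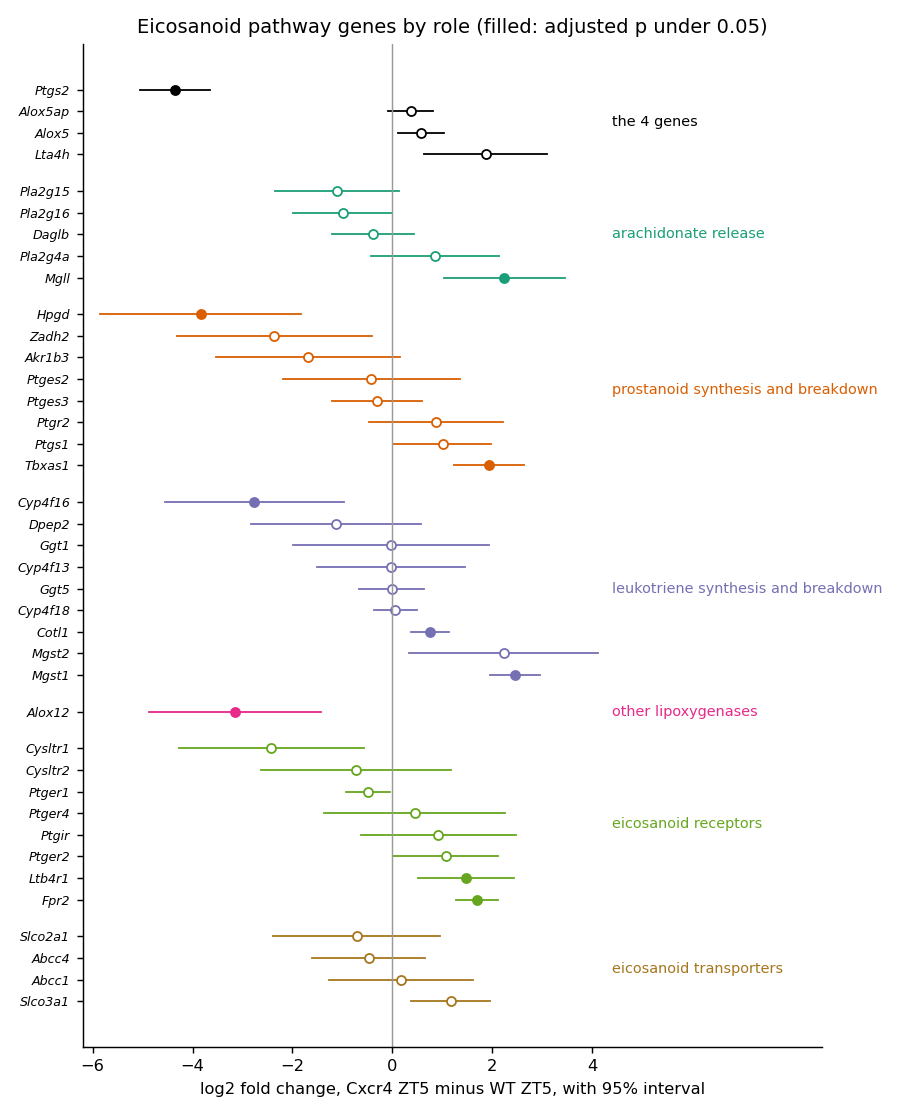
Log2 fold change (x) with its 95% interval (line) in Cxcr4-deficient against wild-type ZT5 neutrophils for the 4 genes and the 35 other pathway genes (y), grouped and coloured by role and filled where the adjusted p was under 0.05. Ptgs2 is at -4.35, and filled points stand on both sides of 0 among the other genes.

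Among genes that make or break down prostanoids, Ptgs2 fell while the other cyclooxygenase gene was not called. Ptgs1, the constitutive cyclooxygenase, had values of 8.26, 15.4 and 36.9 in wild-type ZT5 and 26.2, 42.3 and 38.9 in Cxcr4-deficient libraries, a difference of 1.01 (SE 0.47, limma adjusted p = 0.212). Tbxas1, the thromboxane synthase, which uses the product of both cyclooxygenases, rose from 24.8, 28.9 and 40.2 to 123, 153 and 92.8. The Tbxas1 difference was 1.94 (SE 0.34, limma adjusted p = 0.000434), and it was called in all 17 alternatives tried. Tbxas1 was also higher in Cxcr4-deficient than in Cxcr2-deficient libraries (1.36, limma adjusted p = 0.0373) and than in Bmal1-deficient ones (1.58, limma adjusted p = 0.00387). Hpgd, which inactivates prostaglandins, fell from 42.3, 29.8 and 30.1 to 0.80, 0 and 6.88 (limma adjusted p = 0.0127). Hpgd also fell in the libraries labelled Bmal1-deficient, to 1.68, 3.72 and 0 (limma adjusted p = 0.0494), but that call held in 3 of 17 alternatives and the former in 9 of 17. Values of Hpgd were also below all wild-type ZT5 ones, without a call, in the Cxcr2-deficient group (2.86 and 0, difference -4.14, limma adjusted p = 0.0752) and in wild-type ZT13 (0.52, 12.3 and 10.5, difference -2.49, limma adjusted p = 0.333). Wild-type ZT5 thus held the 3 highest values of Hpgd among the 14 libraries. Ptgr2, a prostaglandin reductase, was higher in Cxcr4-deficient than in Cxcr2-deficient libraries, at 37.7 and 4.56 (limma adjusted p = 0.0137).

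Among genes around the leukotriene enzymes, 2 rose and 1 fell in Cxcr4-deficient against wild-type ZT5 neutrophils, and Mgst1 had the smallest p. Mgst1, a microsomal glutathione transferase of the same protein family as Alox5ap, had values of 69.5, 121 and 112 in wild-type ZT5 and 461, 609 and 577 in Cxcr4-deficient libraries. The difference was 2.46 (SE 0.24, limma adjusted p = 1.50e-07), and it was called in all 17 alternatives and against both other mutants. Cotl1, whose product binds and stabilizes 5-lipoxygenase, rose from 319, 370 and 324 to 451, 741 and 543 (limma adjusted p = 0.0105), a call that held in 14 of 17 alternatives. Cotl1 averaged 539 in Cxcr2-deficient and 447 in Bmal1-deficient libraries. Neither group overlapped wild-type ZT5 and neither was called (limma adjusted p = 0.120 and 0.336). The Cxcr4-deficient libraries differed from those 2 groups by 0.07 and 0.34, without a call (limma adjusted p = 0.912 and 0.321). Cyp4f16, a fatty acid hydroxylase, fell from 20.6, 8.66 and 12.4 to 2.60, 0 and 1.49 (limma adjusted p = 0.0485), held in 4 of 16 alternatives. Cyp4f16 was as low, without a call, in Bmal1-deficient libraries (2.52, 0 and 0, limma adjusted p = 0.0743) and in wild-type ZT13 (1.57, 3.38 and 0, limma adjusted p = 0.221), with no overlap with wild-type ZT5 in either. Cyp4f18, the hydroxylase that inactivates leukotriene B4 in mouse neutrophils, averaged 207 and 214 and was not called (limma adjusted p = 0.909). The remaining 5 of the 9 genes in this list were not called.

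Upstream of both routes, Mgll rose in Cxcr4-deficient against wild-type ZT5 neutrophils and the phospholipases were not called in that comparison. Mgll, which frees arachidonic acid from an endocannabinoid, went from 11.8, 26.6 and 5.36 to 74.3, 45.6 and 66.8 (limma adjusted p = 0.0162), held in 12 of 17 alternatives. Pla2g16, a phospholipase, averaged 10.3 in Cxcr4-deficient and 64.7 in Bmal1-deficient libraries (limma adjusted p = 0.000927), with 21.3 in wild-type ZT5. Alox12, the platelet-type lipoxygenase, fell from 9.15, 70.1 and 79.3 to 0, 9.15 and 7.26 (limma adjusted p = 0.0182), although the groups overlapped. That call held in 12 of 17 alternatives, and leaving out 1 library gave -4.11 to -2.08, with the call lost without wild-type ZT5 replicate 8 (-2.71) or 9 (-2.62) or Cxcr4-deficient replicate 2 (-2.08). Alox12 was also lower than in Cxcr2-deficient (-3.28, limma adjusted p = 0.0443) and Bmal1-deficient libraries (-3.01, limma adjusted p = 0.0295), with no overlap. The low wild-type value of Alox12 was in replicate 5, the library with the lowest platelet sum, and the part of platelets in this difference was not tested.

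Of 8 receptors in the table, 2 rose in Cxcr4-deficient against wild-type ZT5 neutrophils. Fpr2, a formyl peptide receptor that also binds lipoxin A4, rose from 112, 203 and 181 to 457, 549 and 562, a difference of 1.69 (SE 0.21, limma adjusted p = 4.86e-06) called in all 17 alternatives. Ltb4r1, the high-affinity receptor for leukotriene B4, rose from 17.5, 10.1 and 29.3 to 61.1, 48.8 and 42.6 (limma adjusted p = 0.0481), a call that held in 6 of 17 alternatives. The prostaglandin E2 receptor genes Ptger1, Ptger2 and Ptger4 averaged 124 against 172, 41.5 against 19.9 and 8.34 against 5.61 and were not called. Of 4 transporters, none was called in that comparison, while Slco3a1, a prostaglandin carrier, was higher in the libraries labelled Bmal1-deficient, at 61.5, 110 and 157 against 16.8, 64.0 and 28.6 (limma adjusted p = 0.0322), held in 8 of 17 alternatives.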

How the data were processed

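Per the labels' protocols, RNA was amplified with the Ovation Single Cell kit and sequenced as TruSeq libraries; the submitters' processing notes name CASAVA 1.8.2, cutadapt, RSEM 1.2.3 and GRCm38. The authors deposited 1 table of 11288 genes and 14 libraries as a normalized signal, by a method that the sources used here do not give. In each library 100% of values were whole multiples of the value of 1 read within a tolerance of 1e-06, so reads were recovered by division.

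Genes whose mean value reached 1 (11255) were fitted on log2(value + 1) with limma 3.58.1 (trend, 5 groups, 14 libraries), with Benjamini-Hochberg adjustment over all of them and calls at 0.05. Fold changes on this scale understate the change of low genes. The fit was tested on simulated data. edgeR 4.0.16 and DESeq2 1.42.0 on recovered reads, pseudocounts of 0.1 and 10, filters, scalings, leaving out each library and a replicate block were alternatives. Coordinates are from GENCODE M21; sequences are from RefSeq promoters of GRCm38.p6 (3 of the 4 genes matched; Alox5ap is not used here) and GENCODE transcripts. Named genes were the 4 members, pathway genes called in a comparison or with the smallest p, and the 5 genes most like each member; others were chosen as context after their values were seen. Members and lists were chosen with earlier results of these data known.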

Additional observations from a re-analysis of the deposited data

How the results depend on the processing

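Ptgs2 was called in all 17, 16 and 17 alternatives against wild-type ZT5, Cxcr2-deficient and Bmal1-deficient libraries, at -4.91 to -3.70, -5.19 to -3.98 and -5.31 to -4.09, with highest adjusted p of 6.90e-06, 0.00237 and 7.97e-05. Of 463 recomputed values of the 4 genes, 7 gained and 3 lost a call, and no called value changed sign, while values not called, such as Ptgs2 at ZT13 (-0.09 to 0.56), could. Lta4h against wild-type ZT5 passed with a pseudocount of 10 (1.42), a mean value of at least 10 (1.87), quantile normalization (2.02), only the groups compared (1.87) and DESeq2 (1.89). Lta4h against Cxcr2-deficient libraries missed it in edgeR with TMM (2.83) and in edgeR with DESeq2 size factors (2.84). Leaving out 1 library in turn gave 1.60 to 2.01 for the first, 1.97 to 4.06 for the second, and 0.38 to 0.96 and 0.26 to 0.84 for Alox5 in Cxcr2- and Cxcr4-deficient against wild-type ZT5 libraries. The cause was not tested.

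Counts of the 35 other pathway genes moved too. Against wild-type ZT5, the Bmal1-deficient count of 2 was 1 without a filter, with a mean value of at least 10, with quantile normalization, with only the groups compared and with DESeq2, and 0 with a pseudocount of 0.1 and both edgeR fits. The Cxcr2-deficient count of 0 was 1 with a pseudocount of 10 and 2 with DESeq2. The Cxcr4-deficient count of 9 was 5 with both edgeR fits and DESeq2. Against Cxcr2-deficient libraries the count of 5 was 3 with a pseudocount of 0.1 and with only the groups compared, 2 with quantile normalization and 1 with both edgeR fits. Leaving out 1 library gave 0 to 2, 0 to 1, 4 to 7 and 1 to 3 in these 4 comparisons. These list and single-gene alternatives were added after seeing the data.

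Counts of all genes called ran over the alternatives from 2 to 118 (9 as reported) for ZT13, 23 to 263 (115), 12 to 332 (75) and 564 to 1079 (923) for the Bmal1-, Cxcr2- and Cxcr4-deficient groups against wild-type ZT5, 237 to 714 (465) and 432 to 871 (641) for Cxcr4-deficient against Cxcr2- and Bmal1-deficient libraries, and 4 to 83 (15) between those. With a replicate block Ptgs2 was -4.77 against wild-type ZT5 and the counts of pathway genes were 0, 1 and 4 for the Bmal1-, Cxcr2- and Cxcr4-deficient groups. Same-numbered libraries did not deviate together (11 pairs, correlations -0.037 to 0.017), so the number was not taken as a pairing.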
